A study of Mus musculus with 2 samples.

Results

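The rodent miRNA array of Sfmbt2 was described here in fetal mouse liver. Its members are the annotated miRNA genes that lie inside Sfmbt2 on chromosome 2, on the same strand as that gene, and whose symbols start with Mir297, Mir466, Mir467 or Mir669. The rule found 59 members among the 1973 miRNA genes counted, and it used names and positions only, no measured value. The study has 1 group of 2 microRNA sequencing libraries, each made from total RNA of livers pooled at embryonic day 15.5 from embryos of both sexes. All embryos were of the strain B6NCrl, with no genotype or treatment set between them. The pool of replicate 1 held 78 embryos and that of replicate 2 held 62. No conditions could therefore be compared, and the spread between the libraries is that of pools and library making.

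Sfmbt2 encodes a Polycomb group protein and is an imprinted gene of the mouse, expressed from the paternal allele in extraembryonic tissue. In mice and rats an intron of the gene carries one of the largest known miRNA clusters, built of tandem repeats, and loss of the mouse cluster impairs the placenta. The cluster is best known from placenta and early embryonic cells rather than liver. In miRNA nomenclature a letter marks relatives with closely similar mature sequences (Mir467c, Mir467d), while a final number marks separate loci that give the same mature miRNA (Mir467a-1, Mir467a-2).

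The names Mir466, Mir467 and Mir669 are also borne by genes elsewhere in the genome, and the mature sequences of some of these relatives are shown to let a reader see the repeats of which such miRNAs consist. They are not members of the array. Sequences are from RefSeq on GRCm38.p6, written 5′ to 3′, and capitals mark the seed, bases 2 to 8, with which a miRNA pairs to its targets.
mmu-miR-466i-3p: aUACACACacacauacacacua
mmu-miR-467f: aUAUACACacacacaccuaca
mmu-miR-467g: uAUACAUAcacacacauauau
mmu-miR-466k: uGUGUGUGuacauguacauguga
mmu-miR-669n: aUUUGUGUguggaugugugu
The first 3 are mostly A and C, with unbroken runs of alternating C and A of 11, 12 and 9 bases. In the other two, U and G make up 69.6% of miR-466k and 90.0% of miR-669n. Among all 8 relatives with a mature sequence in that table, no seed was shared in any of 28 pairs. Yet miR-466i-3p and miR-467f, which carry different family names, share a run of 13 bases. All 10 genes of these prefixes outside Sfmbt2 had 0 sense counts in both libraries.

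Reads were counted per precursor gene, so the arms of a precursor were not separated. Sense counts, those on the strand of the gene, summed to 5529166 in replicate 1 and 3169882 in replicate 2 over all miRNA genes. Levels are given as CPM, the sense counts of a gene per 1000000 sense miRNA counts of its library. A small RNA read spans its whole mature miRNA, so levels of different members were set side by side without division by gene length. The order of the detected members was the same per kilobase of precursor. The tissue label was checked against marker miRNAs. Of 5 hepatocyte miRNAs, led by Mir122, 4 were detected, and the list held 18.7% and 17.3% of sense counts. The erythroid list held 2.71% in replicate 1 and 1.86% in replicate 2. In the same order the leukocyte list held 1.95% and 1.82%, and the endothelial list 4.48% and 4.36%. All measured members of the erythroid, leukocyte and endothelial lists were detected. The leukocyte list was Mir223 alone, since Mir142 was not matched. Mir802 of the hepatocyte list, with 140 counts in replicate 1 and 6 in replicate 2, was not detected. Of 5 neural miRNAs 0 were detected and 4 were at 0. All 6 names of that list end in a locus number, and reads mapping to several places entered no gene count. The low counts of this list therefore cannot show whether neural miRNAs were absent. Skeletal muscle miRNAs, with 1 of 3 detected, held 0.143% in replicate 1 and 0.263% in the other library, led by Mir206 at 2029 CPM. Of 9 miRNAs of pluripotent cells and trophoblast 7 were detected, at 0.0140% and 0.0186% of sense counts. That list had 10 names, of which Mir292a was not matched. The symbol Mir292, detected with 127 and 62 counts, was not included in these values. Like the array's share, given next, the sums of the skeletal muscle and the pluripotent and trophoblast lists were higher in replicate 2. The muscle sum was nearly all Mir206. In the other list Mir302c (14 and 5 counts) and Mir302d (126 and 62) were lower in CPM there. The other measured names of that list were higher. The hepatocyte, erythroid, leukocyte and endothelial sums were lower in replicate 2. Within the erythroid list, however, Mir144 and Mir486 were higher there. The part of any list in the array's share was not tested. Reads that map to several places entered no gene count, and they were 267 times as many as all counts of the array in replicate 1 and 259 times as many in the other library. How many of them came from the array was not tested.

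The array as a whole gave a small and similar share of both libraries. Its members summed to 16138 sense counts in replicate 1 and 10179 in replicate 2. This was 0.292% of sense counts in replicate 1 (exact Clopper-Pearson 95% interval 0.287 to 0.296) and 0.321% in replicate 2 (0.315 to 0.327), or 0.306% ± 0.0207 (SD, n = 2). The intervals cover counting error only, since amplified reads are not independent molecules, and they do not overlap. In whole tissue, few cells with much of these miRNAs and many cells with little cannot be told apart. No count of any member lay on the opposite strand, against 8.77% and 9.12% of all counts over the whole table. The run from Mir379 to Mir410 on chromosome 12 likewise had 0 opposite-strand counts.

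Most members carried no reads, and a handful carried nearly all. With at least 10 sense counts required in both libraries, 9 of the 59 members (15.3%) were detected, against 352 of 1973 miRNA genes (17.8%). These 9 held 99.8% of the array's counts in each library. Another 11 members had counts below that minimum, and 39 had 0 in both libraries, which allows a level from uniquely placed reads of up to 0.543 CPM in the first library and 0.946 CPM in the second. The share at 0 in both, 66.1%, was close to the 64.9% of all miRNA genes. The median level was 0 CPM over the 59 members and also 0 CPM over all genes.

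The families differed in how much they contributed to the uniquely placed reads, and their shares were alike in both pools. Numbered loci made up 10 of 14 Mir467, 8 of 20 Mir669, 11 of 20 Mir466 and 3 of 5 Mir297 genes. What reads with several possible loci would add to each family was not tested. The 14 Mir467 genes summed to 12927 counts in replicate 1 and 8174 in replicate 2. They made up 80.1% (95% interval 79.5 to 80.7) and 80.3% (79.5 to 81.1) of the array's counts. At 2458 ± 170 CPM (SD, n = 2) they formed the leading family, with 3 genes detected.

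The 20 Mir669 genes followed with 3105 and 1935 counts. They held 19.2% (18.6 to 19.9) of the array in the first library and 19.0% (18.3 to 19.8) in the second, a level of 586 ± 34.6 CPM. With 5 genes detected, Mir669 had the most detected members, at a lower summed level than Mir467.

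The other families were low in uniquely placed reads. The 20 Mir466 genes had 97 counts in replicate 1 and 60 in replicate 2, which is 18.2 ± 0.979 CPM and 0.601% and 0.589% of the array. A single gene of that family was detected. The 5 Mir297 genes had 9 and 10 counts, and none of them was detected. The order Mir467, Mir669, Mir466, Mir297 held in both libraries, and the levels of neighbouring families did not overlap.

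**Figure D1:**
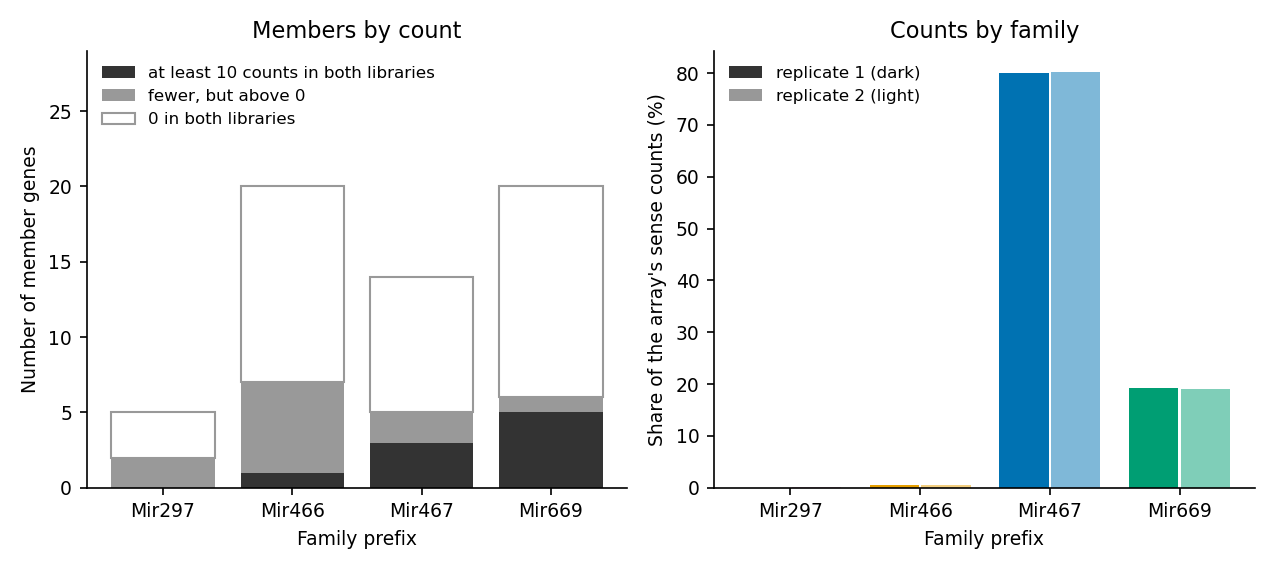
The left panel gives the number of member genes of each family prefix, split into those with at least 10 sense counts in both libraries (dark), those with fewer (grey) and those at 0 in both (white). The right panel gives each family's share of the array's sense counts in percent, with replicate 1 dark and replicate 2 light: Mir467 holds 80.1% and 80.3% with 14 genes, and Mir466 under 1% with 20.

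Among the Mir467 genes, Mir467c, Mir467d and Mir467e gave almost the whole signal, together 80.0% and 80.3% of the array's counts. Mir467c (ENSMUSG00000077049.2, chromosome 2, 10473931 to 10474027, GRCm38) had 5005 counts in replicate 1 and 3191 in replicate 2, or 905 and 1007 CPM. It was the highest member of the array in both libraries and ranked 90 among all miRNA genes by mean CPM.

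Mir467d (10507630 to 10507714) had 4407 and 2545 counts, or 797 and 803 CPM. Its close relative Mir467e (10505721 to 10505807) had 3506 and 2437 counts, or 634 and 769 CPM. Mir467d was thus nearly level between the libraries, while Mir467e lay higher in replicate 2. Counts of Mir467d were 1.26 times those of Mir467e in replicate 1 and 1.04 times in replicate 2, where their counting intervals overlapped. Whether that ratio differed between the pools was not tested.

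The last relative named with a letter alone, Mir467b, had 3 and 1 counts. Of the 10 numbered loci of Mir467a, 9 had 0 counts in both libraries. The exception, Mir467a-1, had 6 counts in replicate 1 and 0 in replicate 2.

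Among the Mir669 genes 3 stood well above the floor. Mir669o (10514300 to 10514395) had 1593 and 1000 counts, or 288 and 315 CPM. Mir669l (10468971 to 10469068) had 1043 and 666 counts, or 189 and 210 CPM. Mir669c (10509296 to 10509404) had 387 and 238 counts, or 70.0 and 75.1 CPM. The values of each were closer between the libraries than to the next member in the order.

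The remaining detected members were low. Mir466n (10513741 to 10513834), the detected gene of the Mir466 family, had 89 and 48 counts, or 16.1 and 15.1 CPM. Mir669e (10467495 to 10467613) had 65 and 20 counts, or 11.8 and 6.31 CPM. Mir669h (10518155 to 10518279) had 12 and 11 counts, just inside the detection minimum. From Mir467c to Mir669h the level fell 417-fold in replicate 1 and 290-fold in replicate 2.

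The order of the 9 detected members was the same in both libraries, and in each of the 8 pairs of neighbours the ranges over the libraries did not overlap. Counting error alone was wide enough to cover the step from Mir467d to Mir467e in replicate 2, from Mir466n to Mir669e in replicate 1 and from Mir669e to Mir669h in replicate 2. These steps are therefore uncertain.

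**Figure D2:**
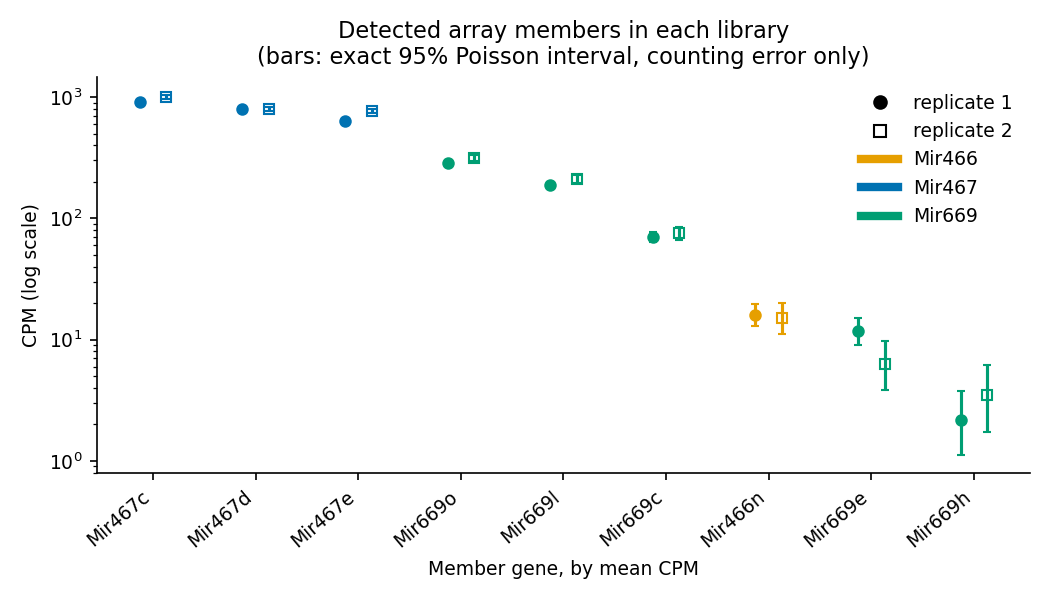
Points give the CPM (log scale) of the 9 detected members in replicate 1 (filled circles) and replicate 2 (open squares), coloured by family, and bars give the exact 95% Poisson interval of the count. The order is the same in both libraries, from Mir467c at 905 and 1007 CPM to Mir669h at 2.17 and 3.47 CPM.

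Below the minimum, 7 members reached at least 3 counts in a library. Mir297a-2 came nearest, with 8 counts in replicate 1 and 10 in replicate 2. Mir669f had 5 and 0, Mir466l had 4 and 1, Mir466b-3 had 0 and 4, and Mir466 had 2 and 3. Mir467a-1 and Mir467b are given above. A further 4 members (Mir466o, Mir297b, Mir466m and Mir466f-2) had at most 2 counts in either library. The 39 members at 0 were 14 of Mir669, 13 of Mir466, 9 of Mir467 and 3 of Mir297.

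Detection fell wholly among members whose symbol carries no copy number, a split that was made after the values were seen. All 9 detected members were among the 27 with no number in their symbol. Of the 32 numbered members 0 were detected and 28 had 0 counts in both libraries. Over all miRNA genes, numbered or not, 352 of 1973 (17.8%) were detected and 64.9% were at 0 in both. The shares among the numbered genes of the whole table were not counted. The numbered members summed to 15 counts in replicate 1 and 16 in replicate 2, or 0.0929% (95% interval 0.0520 to 0.153) and 0.157% (0.0899 to 0.255) of the array. In the Mir467 family 3 of 4 unnumbered and 0 of 10 numbered genes were detected. In the Mir669 family it was 5 of 12 and 0 of 8, and in the Mir466 family 1 of 9 and 0 of 11. Members that share a mature sequence are not independent of each other. Whether the exclusion of reads with several possible loci has a part in the split was not tested. Among numbered loci, Mir297a-2 was the highest in the array, with 8 counts in replicate 1 and 10 in replicate 2. Outside the array numbered loci had both high and low counts, such as 25972 and 16078 at Mir16-1 and 24 and 13 at Mir26a-1. These are examples only, and how alike their copies are was not compared with the members.

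The members lie in a single intron. All 59 fall in an intron of 62472 bases at 10461473 to 10523944. It is intron 10 of the transcript Sfmbt2-201 and intron 11 of Sfmbt2-205, and no member touches an exon of either. Exons of transcripts that do not span the array were not compared. They span 51617 bases, from Mir466m at 96153 bases after the start of the Sfmbt2 gene to Mir669h, and the median gap between neighbouring members is 314 bases. In the middle of the array the Mir467a loci and Mir467b recur at mostly even distances. From Mir467a-2 to Mir467a-9 the starts of these genes are 2413 to 2470 bases apart in 8 steps. The last step, from Mir467a-9 to Mir467a-10, is longer, at 4880 bases.

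Counts came from the flanks of this repeat. The 15 members upstream of Mir467a-1 held 38.0% and 38.2% of the array's counts in replicates 1 and 2, with Mir669e, Mir669l and Mir467c detected. The 21 members downstream of Mir467a-10 held 62.0% and 61.8%, with 6 detected. Between them, over the 27010 bases from Mir467a-1 to Mir467a-10, lie 23 members with 9 counts in replicate 1 and 1 in replicate 2, and none was detected. Of these 23 members 20 are numbered, so place in the array and copy number in the name cannot be told apart there. Outside the repeat, 9 of 24 unnumbered and 0 of 12 numbered members were detected. Genes of high and low count also sat side by side: Mir467d (2545 counts in replicate 2) and Mir466 (3 counts) are separated by 203 bases.

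**Figure D3:**
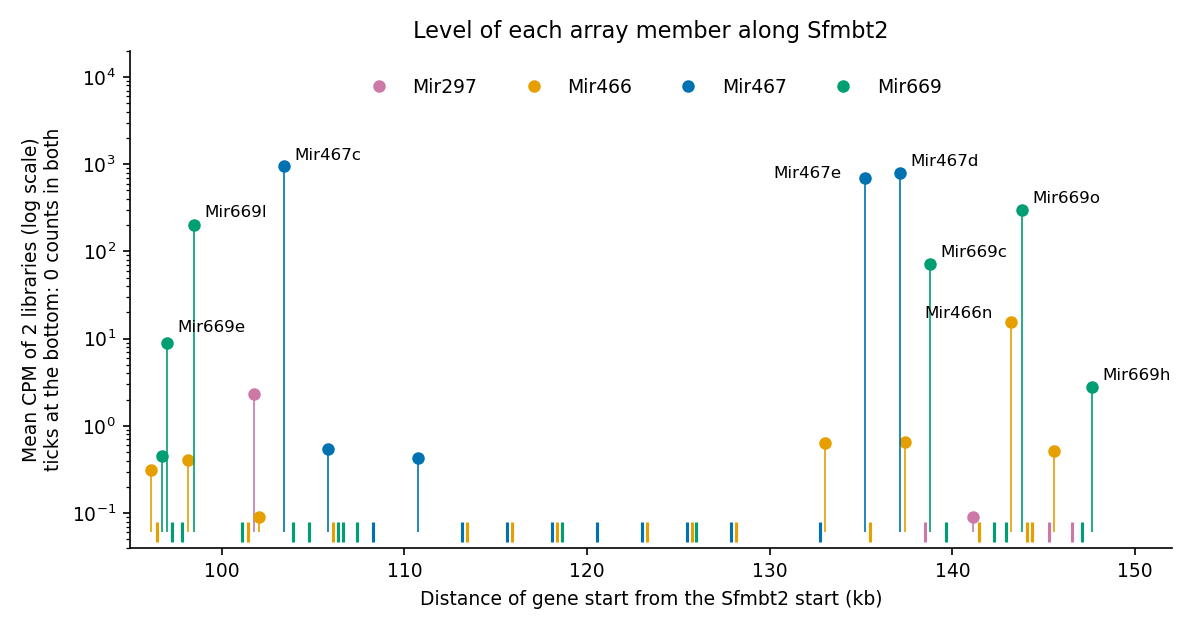
Each point is a member with counts, at the distance of its start from the start of Sfmbt2 (kb) and at its mean CPM over the 2 libraries (log scale), coloured by family, and ticks at the bottom mark members with 0 counts in both libraries. The 9 labelled members are the detected ones, and all lie on either side of the stretch of ticks in the middle that holds the Mir467a loci.

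The libraries were then compared gene by gene, which asks how closely separate pools match. The two-sided exact binomial test, with TMM-scaled sizes and Benjamini-Hochberg adjustment over all 456 miRNA genes with at least 10 counts summed, covers counting error between these libraries and not conditions. Over all genes 38.6% were called, 19.7% higher and 18.9% lower in replicate 2. Of the 10 members tested, 3 were called, a share near that background.

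Mir467e was higher in the second pool by 0.26 on the log2 scale, the ratio being replicate 2 over replicate 1 (adjusted p = 5.07e-11, exact binomial test). Mir467c was higher by 0.14 on the same scale (adjusted p = 0.000110, exact binomial test). Mir669e was lower, at -0.91 (adjusted p = 0.0357, exact binomial test), but with 65 and 20 counts it rests on few reads. With no count minimum, and so more genes tested, its adjusted p was 0.0527 by the same exact test.

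The other 7 members tested were not called. Mir669l and Mir669o had log2 ratios of 0.14 and 0.12, much like that of Mir467c, on fewer counts. Mir669c was at 0.09, Mir466n at -0.10 and Mir467d at -0.0036. Mir669h and Mir297a-2, with the fewest counts, were at 0.66 and 1.11. Over the 9 detected members the median log2 ratio was 0.12, against 0.0082 over all 352 detected genes, where the SD of the log2 ratio was 0.443. The median absolute ratio was 0.14 in the array and 0.15 over all detected genes.

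**Figure D4:**
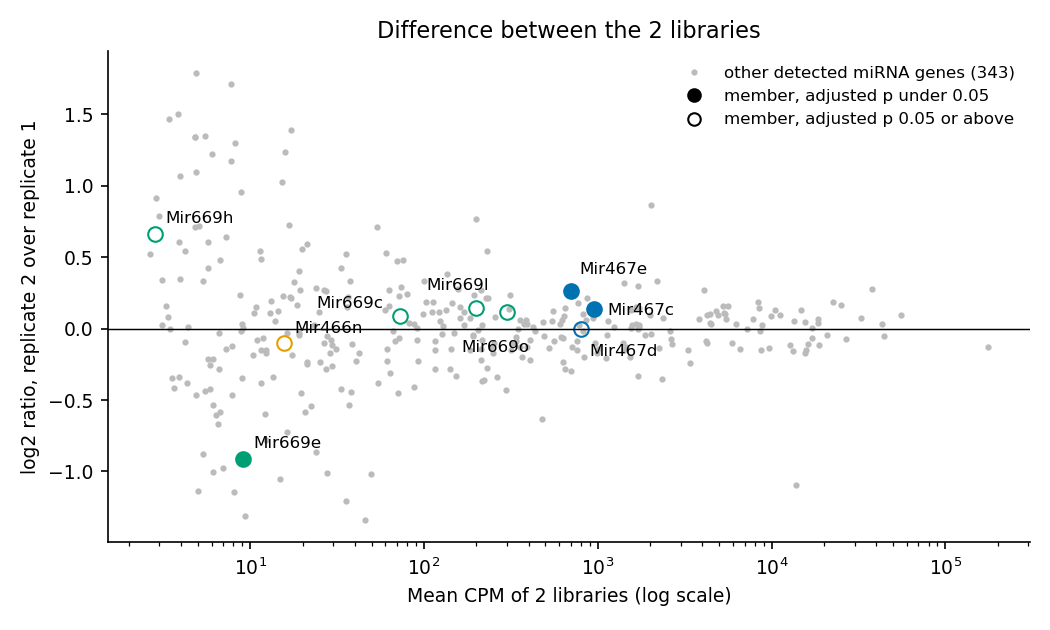
The log2 ratio of replicate 2 over replicate 1 (TMM-scaled) is plotted against mean CPM (log scale) for the detected miRNA genes, with the 343 other genes in grey and the 9 members coloured by family, filled where the adjusted p of the exact binomial test was under 0.05. Members above 50 CPM lie between -0.0036 and 0.26, and Mir669e lies at -0.91.

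Other tandem clusters show how the array sits in this tissue. The run from Mir379 to Mir410 on chromosome 12, an imprinted cluster expressed from the maternal allele, had 29 of 33 genes detected and held 11.6% of sense counts in each library. The run from Mir290 to Mir295 on chromosome 7, a cluster of pluripotent cells and early embryos, had 6 of 7 genes detected, yet held 0.0103% and 0.0148%. The array lay between them in its share of counts, with the smallest part of its genes detected. Its 3 highest members held 80.0% and 80.3% of its counts, where those of the Mir379 run held 47.9% and 47.1% and those of the Mir290 run 89.1% and 84.0%. These differences were not tested. Of the array's 59 genes 32 carry a copy number in their symbol, while genes of the other runs carry none. The parts detected are therefore not alike in this respect. Inside Sfmbt2 a further 48 miRNA genes with Gm symbols lie on the same strand, and 0 of them were detected, with 6 counts in all in replicate 1 and 3 in replicate 2.

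**Figure D5:**
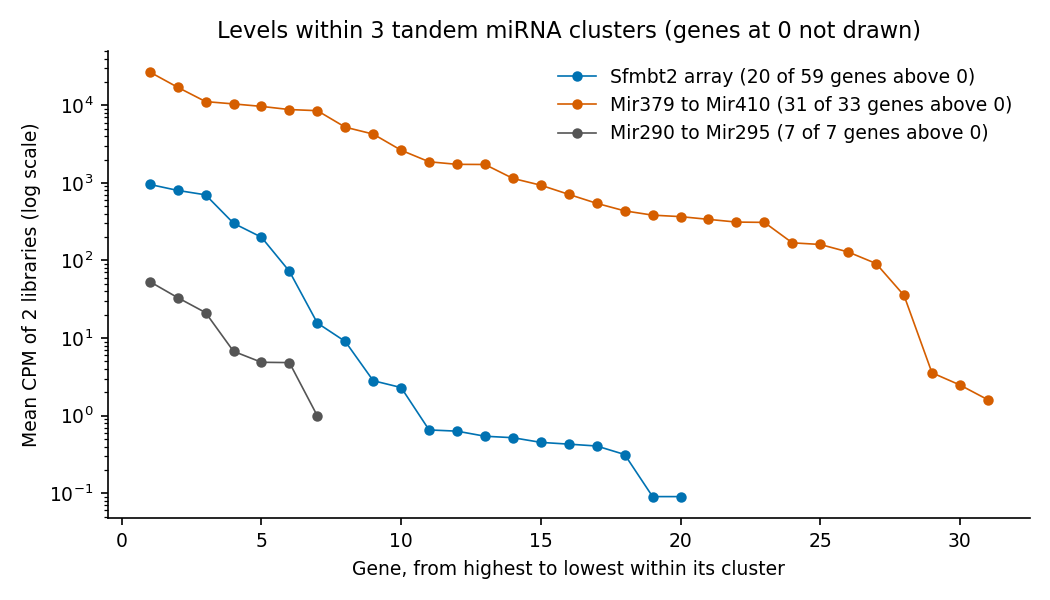
Genes of each cluster are ordered from highest to lowest along the horizontal axis, and the vertical axis gives the mean CPM over the 2 libraries on a log scale; genes at 0 in both are not drawn. The array runs from 956 CPM at Mir467c down to 0.0904 CPM with 20 of 59 genes above 0, below the Mir379 to Mir410 run and above the Mir290 to Mir295 run in its highest members.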

How the data were processed

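The deposited tables hold raw whole-number read counts per miRNA gene, 1 table per library, split into columns for the sense strand, the opposite strand and their sum. Assembly mm10 and annotation release M4 are named in the README text the authors deposited. For the aligner, the counter and trimming, nothing is given in the sources used here. Reads assigned to no gene are listed apart and entered no library size or test. They include reads mapping to several places, 29.3% of 14666947 reads in replicate 1 and 31.1% of 8454226 in replicate 2.

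Gene names, positions and introns came from GENCODE release M21 on the same assembly, matched by the stable part of the identifier. Of the 1973 genes 1894 matched, and all 59 members matched with the same version. Release M21 lists 12 more genes of this rule, not analysed here. RefSeq mature sequences (GRCm38.p6) were matched by symbol for 8 of the 10 relatives outside Sfmbt2 and 0 of the 59 members.

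TMM factors (edgeR 4.0.16, R 4.3.3) were computed on genes with at least 10 counts summed. The binomial test (scipy 1.17.1, threshold 0.05) was tested on simulated data, and DESeq2 1.42.0 gave alternative size factors. A count of 0 allows up to 3 counts. Every member with at least 10 sense counts in both libraries was to be named. Members, lists and tests were chosen with earlier results of these data known.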

Additional observations from a re-analysis of the deposited data

How the results depend on the processing

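With unstranded counts and totals the array's share was 0.279%, and the levels were 16.6 CPM for Mir466, 2238 for Mir467 and 534 for Mir669; the members' own counts were the same, so this reflects the larger totals. Per all reads in the tables, assigned or not, the share was 0.115% and the levels were 0.898 for Mir297, 6.86 for Mir466, 924 for Mir467 and 220 for Mir669 per 1000000 reads. Leaving out each library in turn gave 0.292 to 0.321% for the array, 1.63 to 3.15 CPM for Mir297, 17.5 to 18.9 for Mir466, 2338 to 2579 for Mir467, 562 to 610 for Mir669 and 9 to 10 detected members. A minimum of 1 count in both libraries gave 14 detected members, and a minimum of 50 gave 6. TMM and DESeq2 scaling moved no family level by more than its SD. In the comparison of libraries 156 to 187 genes and 2 or 3 members were called over the 5 alternatives. The share of calls higher in replicate 2 was 90 of 176 by TMM sizes and 97 of 177 by total counts. The log2 ratio of Mir467d was 0.0105 by total counts and 0.0038 with unstranded counts, and it was not called in either. No paired analysis was possible because there is 1 group. The planned count of genomic copies of each mature sequence was not run. Among the 50 members below the detection minimum, with at most 10 counts in a library, an order could not be read at this depth.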
